A study of Homo sapiens with 4 samples.

Results

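The 60 genes described here build ribosomes: they encode subunits and transcription factors of RNA polymerase I, nucleolar scaffold proteins, proteins of the small nucleolar ribonucleoprotein particles (snoRNPs), and assembly factors of both ribosomal subunits. They were taken by symbol from a list of the pathway, all 60 were found among the 39259 genes measured, and all 60 passed the filter of a mean of at least 1 FPKM (fragments per kilobase, scaled to the depth of each library). MDA-MB-231, an established line of triple-negative breast cancer, supplied the RNA. It was sequenced in 2 libraries labelled KO, for a knockout of mdig (also called MINA53, gene RIOX2), and in 2 wild-type (WT) libraries of the same line. The labels do not say how the knockout was made, whether the KO cells were 1 clone or a pool, or whether the replicates were separate cultures, so the p-values given here speak for the spread among 4 libraries, and that spread may be technical.

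Ribosome production begins in the nucleolus, where RNA polymerase I copies the ribosomal DNA into a long precursor. Box C/D snoRNPs direct methylation and box H/ACA snoRNPs direct pseudouridylation of that precursor, while large sets of assembly factors fold it, cut it and load ribosomal proteins to give the small and the large subunit. Cancer cells often raise this pathway, many of its genes are known MYC targets, and mdig is itself a nucleolar oxygenase that hydroxylates a protein of the large subunit.

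The libraries labelled KO held 48768932 and 52163811 assigned fragments, and the WT libraries held 45173267 and 22503981. The least covered member, BRIX1, still had 151 to 391 fragments per library. RIOX2 RNA, the targeted gene, stood at 9.23 and 9.82 FPKM in the libraries labelled KO, against 8.60 and 8.24 FPKM in WT, so it was no lower there (log2 change 0.16, adjusted p = 0.0546). A level per gene does not show whether the gene was edited, and the KO label is used as given. Of 11 identity markers of breast cancer lines, 8 passed the filter, of which 3 fell (VIM, KRT18 and GATA3) and 3 rose (CD44, EPCAM and KRT19). These were 37.5% in each direction, against 28.4% lower and 21.6% higher over all tested genes. Among these calls only that of KRT19 held in all 16 alternative fits, and that of CD44 held in 7. VIM was abundant (2000 FPKM in both libraries labelled KO, 2275 and 2394 FPKM in WT), as was CD44 (99.5 and 102.3 FPKM in the libraries labelled KO, 93.7 and 84.3 FPKM in WT), while ESR1 and PGR, the hormone receptor genes, had at most 0.00117 FPKM in any library. ERBB2, the third receptor gene of the triple-negative definition, had 14.3 and 13.2 FPKM in the libraries labelled KO and 13.2 and 12.7 FPKM in WT. Among epithelial genes KRT19 had 137.5 and 134.9 FPKM in the libraries labelled KO and 89.7 and 98.8 FPKM in WT, and CDH1, below the filter, had 0.597 and 0.625 FPKM in the libraries labelled KO and 0.177 and 0.128 FPKM in WT. The part of these differences in the results was not tested. Of 10 markers of blood, endothelial, stromal and liver cells, 1 passed the filter (PECAM1, 1.36 and 1.37 FPKM in the libraries labelled KO and 0.970 and 0.985 FPKM in WT).

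Genes for ribosome production were mostly lower in the libraries labelled KO. Of the 60 members, 34 fell and 4 rose, while 22 did not pass the threshold (an adjusted p below 0.05 from limma, fitted on log2(FPKM + 1) over all tested genes). These were 56.7% and 6.67% of the members, against 28.4% lower and 21.6% higher over all 11716 tested genes. Under median-of-ratios scaling 30 members were lower and 5 higher, while over all tested genes the balance turned, with 23.1% lower and 24.9% higher. The median log2 change was −0.21 over the members and −0.041 over all tested genes, and for the members it lay between −0.24 and −0.16 in every alternative run. The differences were moderate. Among the 34 members that fell, the mean in the libraries labelled KO was 59.0% to 87.5% of the WT mean, and 0 fell by 1 or more on the log2 scale. Summed over the members, the level was 2703 and 2771 FPKM in the libraries labelled KO, against 3189 and 3154 FPKM in WT. The groups did not overlap in 46 members that were lower and 8 that were higher in the libraries labelled KO, while over all tested genes the shares were 44.6% and 32.9%. Without KO replicate 1 the members counted 21 lower and 2 higher, and without KO replicate 2 they counted 24 lower and 2 higher, in fits that called 17.5% and 16.7% of all tested genes lower.

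**Figure D1:**
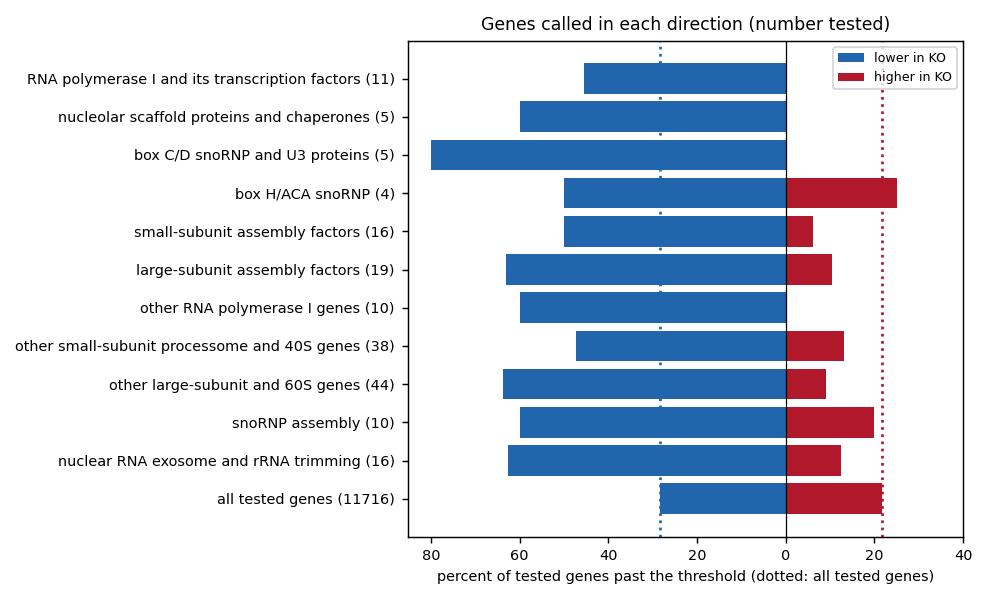
Percent of tested genes that passed the threshold as lower (left of 0) or higher (right of 0) in the libraries labelled KO, for the role groups of the members, for other genes of the pathway and for all tested genes, with the number tested in parentheses. Dotted lines mark the shares over all genes, 28.4% lower and 21.6% higher. The share of lower genes exceeds its line in every list drawn, and the share of higher genes exceeds its line in the box H/ACA group alone, where it stands for 1 of 4 genes.

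RNA polymerase I transcribes the ribosomal DNA after UBTF and the promoter factor SL1 have marked the promoter and RRN3 has bridged the enzyme to it. Of these 11 members, 5 fell (45.5%) and 0 rose, with a median log2 change of −0.11. Over all tested genes, 28.4% fell and 21.6% rose. Under median-of-ratios scaling, and with limma without trend or robust, 3 of the 11 fell. In those fits 23.1% and 27.9% of all tested genes were lower. Fewer of the 11 also fell with either library labelled KO left out. RNA for the catalytic core was lower, a call kept in all 16 alternatives for POLR1B but in 8 of 16 for POLR1A. POLR1B, which forms the active site together with POLR1A, had 4.66 and 4.86 FPKM in the libraries labelled KO and 6.39 and 6.49 FPKM in WT (log2 change −0.37, SE 0.058, adjusted p = 0.00128). POLR1A, the largest subunit, had 10.8 and 11.2 FPKM in the libraries labelled KO and 13.9 and 12.0 FPKM in WT (−0.22, adjusted p = 0.0373). WT replicate 2 lay closer to the libraries labelled KO than WT replicate 1 did, and 8 of 16 alternatives lost the call.

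POLR1C and POLR1D form the assembly platform that RNA polymerases I and III share. POLR1C had 12.5 FPKM in both libraries labelled KO and 15.3 and 16.0 FPKM in WT (−0.30, adjusted p = 0.00267). POLR1D, its partner, had 10.4 and 10.8 FPKM in the libraries labelled KO and 11.2 and 11.9 FPKM in WT (−0.11, adjusted p = 0.153). The ratio of POLR1C to POLR1D was 1.21 and 1.16 in the libraries labelled KO and 1.37 and 1.35 in WT. POLR1E, a subunit that helps the enzyme initiate and elongate, had 24.8 and 25.1 FPKM in the libraries labelled KO and 31.2 and 26.9 FPKM in WT (−0.21, adjusted p = 0.0467), a call that 10 of 16 alternatives lost.

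Of the 6 factors that load the polymerase, 1 passed the threshold. Among the 4 SL1 subunits in this set, TAF1D fell (−0.24, adjusted p = 0.00846). It had 41.2 and 44.0 FPKM in the libraries labelled KO and 49.7 and 51.5 FPKM in WT. Its call was lost without KO replicate 1, and with bin medians subtracted (−0.14, adjusted p = 0.0890). To subtract bin medians, the median change of other tested genes in the same 20 Mb of the genome is taken away. TAF1A, TAF1B and TAF1C had log2 changes of −0.044, −0.10 and −0.10 and did not pass the threshold. UBTF, the activator that coats the ribosomal DNA, had 24.9 and 25.4 FPKM in the libraries labelled KO and 26.0 and 25.8 FPKM in WT (−0.039, adjusted p = 0.552). RRN3 had a log2 change of −0.074 (adjusted p = 0.307). With bin medians subtracted, POLR1A had −0.081 (adjusted p = 0.407) and POLR1E −0.16 (adjusted p = 0.110), neither past the threshold. POLR1B and POLR1C kept their calls in that fit.

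Of the 5 nucleolar scaffold proteins, 3 fell and 0 rose. The shares over all tested genes were 28.4% lower and 21.6% higher. Fewer of the 5 fell with either library labelled KO left out. Fewer of all tested genes were lower in those fits too, so the drop was not particular to the scaffold genes. NOLC1, a chaperone that shuttles snoRNPs, had 85.2 and 90.5 FPKM in the libraries labelled KO and 111.8 and 104.0 FPKM in WT (−0.29, SE 0.060, adjusted p = 0.00439), a call lost without KO replicate 1. Its relative TCOF1, the treacle protein that recruits factors to the ribosomal DNA and is mutated in Treacher Collins syndrome, had 30.2 and 29.6 FPKM in the libraries labelled KO and 36.1 and 36.6 FPKM in WT (−0.27, adjusted p = 0.00305). NPM1, nucleophosmin, was the most abundant member, at 555 and 582 FPKM in the libraries labelled KO and 664 and 644 FPKM in WT (−0.20, adjusted p = 0.0163). The reference lists 50 pseudogenes named after NPM1, which can take or give reads, and 6 of 16 alternatives lost its call. NCL, nucleolin, had a log2 change of −0.11 (adjusted p = 0.145). The helicase DDX21 went against the rest, with 71.1 and 73.2 FPKM in the libraries labelled KO and 68.1 and 60.7 FPKM in WT, but did not pass the threshold (0.16, adjusted p = 0.0663). It passed as a rise without WT replicate 1, and as a fall with bin medians subtracted (−0.19, adjusted p = 0.0485).

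For the box C/D particle, which carries the methyltransferase, 4 of the 5 measured genes were lower. RRP9 binds only the U3 snoRNP, the box C/D particle that starts small-subunit assembly. It had 24.5 and 22.7 FPKM in the libraries labelled KO and 36.8 and 36.5 FPKM in WT, so that the mean was 64.3% of the WT mean (−0.62, SE 0.057, adjusted p = 0.000122). The gene lies on chromosome 3 at 51933429 to 51941904 (coordinates as deposited, which match GRCh38), in a bin with a median of −0.21. With bin medians subtracted its change was −0.41 (adjusted p = 0.00117). SNU13, which binds the kink-turn of the snoRNA first and is also a spliceosomal protein, had 39.5 and 38.8 FPKM in the libraries labelled KO and 53.7 and 55.3 FPKM in WT (−0.47, adjusted p = 0.000260). FBL, fibrillarin, the methyltransferase itself, had 157.1 and 157.3 FPKM in the libraries labelled KO and 213.5 and 207.5 FPKM in WT (−0.42, adjusted p = 0.000369). All 3 kept their call as a fall in all 16 alternatives.

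NOP56 and NOP58 are paralogs that together form the scaffold of the box C/D particle. NOP58 had 41.5 and 42.7 FPKM in the libraries labelled KO and 49.6 and 48.8 FPKM in WT (−0.22, adjusted p = 0.00822), and lost its call with either library labelled KO left out. NOP56 had 99.8 and 109.1 FPKM in the libraries labelled KO and 109.3 and 112.0 FPKM in WT (−0.084, adjusted p = 0.264), so the groups all but met. The ratio of NOP56 to NOP58 was 2.41 and 2.55 in the libraries labelled KO and 2.21 and 2.29 in WT.

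The box H/ACA genes did not all move the same way, although with bin medians subtracted 3 of the 4 were called lower and 0 higher. In that fit 19.6% of all tested genes were lower and 19.9% were higher. DKC1, dyskerin, is the pseudouridine synthase that the other 3 proteins support, and is mutated in dyskeratosis congenita. It had 33.7 and 34.3 FPKM in the libraries labelled KO and 43.8 and 43.6 FPKM in WT (−0.35, SE 0.051, adjusted p = 0.000857). NHP2, an RNA-binding paralog of SNU13, had 77.0 and 75.4 FPKM in the libraries labelled KO and 94.6 and 97.0 FPKM in WT (−0.33, adjusted p = 0.00122). Exons of the opposite-strand gene RMND5B cover 41.4% of the NHP2 exon bases, and the strand setting of the counting is not given in the sources used here. NOP10, a small protein that binds the active side of DKC1, had 136.3 and 134.6 FPKM in the libraries labelled KO and 127.7 and 133.1 FPKM in WT (0.054, adjusted p = 0.401). With the trend of change with gene length removed, NOP10 passed the threshold as a rise. With bin medians subtracted its change was −0.12 (adjusted p = 0.0966).

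GAR1, the subunit that helps load and release the substrate RNA, was the 1 snoRNP member of 9 that rose. It had 33.5 and 34.7 FPKM in the libraries labelled KO and 26.6 and 27.5 FPKM in WT (0.32, SE 0.054, adjusted p = 0.00169). Per library, GAR1 ran at 0.997 and 1.01 times the level of DKC1 in the libraries labelled KO and at 0.608 and 0.631 times that level in WT. The gene lies on chromosome 4 at 109815510 to 109824737, and its neighbours, taken as the other tested genes within the same 20 Mb, had a median log2 change of 0.53. With the medians of such bins subtracted, GAR1 passed the threshold with the opposite sign (−0.21, adjusted p = 0.0172).

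**Figure D2:**
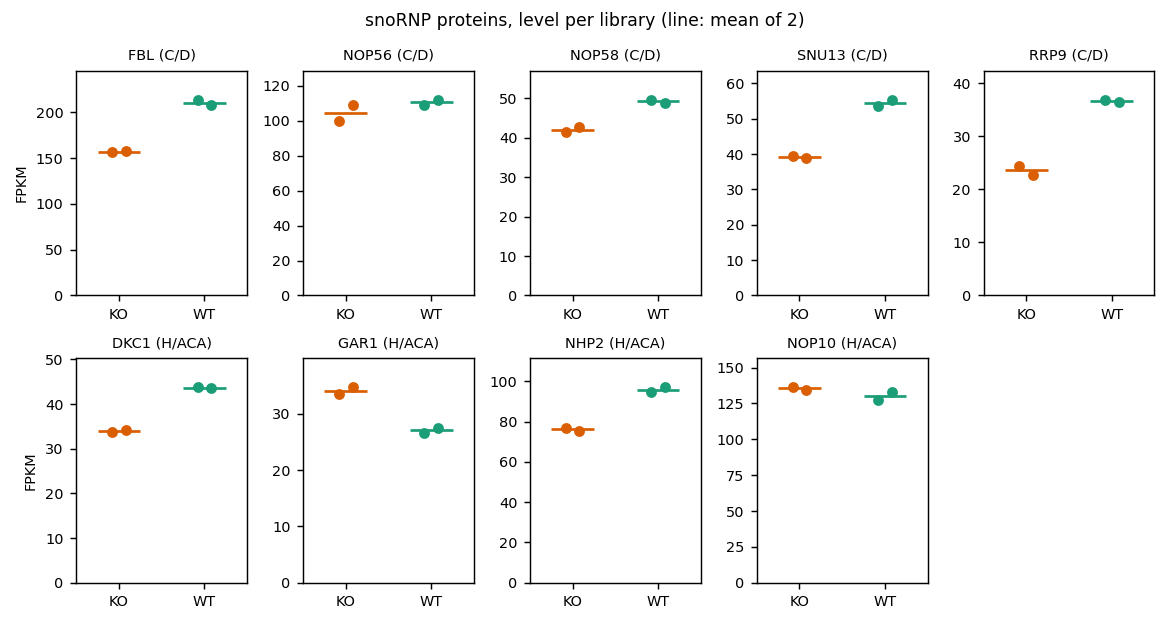
Level in FPKM (y axes from 0, scaled per gene) of the 5 box C/D and the 4 box H/ACA proteins in each library, with the libraries labelled KO left of WT; points are libraries and lines are means of 2. FBL, SNU13, RRP9, NOP58, DKC1 and NHP2 lie lower in both libraries labelled KO, NOP56 nearly meets its WT points, and GAR1 lies higher (33.5 and 34.7 FPKM against 26.6 and 27.5 FPKM).

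Of the 16 small-subunit assembly factors, 8 fell and 1 rose, with a median log2 change of −0.16. The largest falls were those of NOP14 and NOC4L, whose yeast counterparts bind each other. NOP14 had 34.5 and 36.5 FPKM in the libraries labelled KO and 59.2 and 55.6 FPKM in WT, 61.8% of the WT mean (−0.68, SE 0.058, adjusted p = 8.5e-05). It lies at the tip of chromosome 4 (2937936 to 2963506), in a bin with a median of −0.40, and it remained lower with bin medians subtracted (−0.27, adjusted p = 0.00737). NOC4L had 13.5 and 11.9 FPKM in the libraries labelled KO and 18.3 and 21.7 FPKM in WT (−0.61, SE 0.093, adjusted p = 0.00179), in a bin with a median of −0.20 on chromosome 12. Both kept their call in every alternative run.

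The t-UTP proteins join the precursor first and link its transcription to its processing. In this set UTP4 fell to 32.1 and 32.4 FPKM in the libraries labelled KO, against 43.3 and 43.5 FPKM in WT (−0.42, adjusted p = 0.000395). WDR43 fell by 0.33 and UTP15 by 0.21, while WDR75 and HEATR1 each had a log2 change of −0.11 and did not pass the threshold (adjusted p = 0.114 and 0.151). Among later factors, RRP12, which helps export the precursor of the small subunit, fell by 0.41 (adjusted p = 0.000607), the helicase DDX10 by 0.33 and TSR1 by 0.21. TSR1 and UTP15 lost their calls with either library labelled KO left out, and TSR1 also with bin medians subtracted (−0.10, adjusted p = 0.152). BYSL, NOB1 and LTV1, which act on the precursor late, had log2 changes of −0.037, −0.064 and −0.093 and did not pass the threshold, nor did UTP18 (−0.12) and UTP20 (−0.041).

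UTP14A, whose yeast counterpart activates a helicase that removes U3, was the small-subunit factor that rose. It had 23.0 and 23.4 FPKM in the libraries labelled KO and 16.7 and 16.5 FPKM in WT, 139.5% of the WT mean (0.46, SE 0.052, adjusted p = 0.000310). It lies on the X chromosome at 129906131 to 129929752 in a bin with a median of 0.36, and with bin medians subtracted its change was 0.095 (adjusted p = 0.185).

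The 19 large-subunit assembly factors counted 12 lower (63.2%) and 2 higher (10.5%), with a median log2 change of −0.24. Over all tested genes the shares were 28.4% and 21.6%. Both counts were smaller with either library labelled KO left out, as were those over all tested genes. All 3 genes of the PeBoW complex, which is needed to process the large-subunit RNA, fell. BOP1 had 40.1 and 36.6 FPKM in the libraries labelled KO and 61.8 and 68.4 FPKM in WT, at 59.0% of the WT mean the lowest share of all 60 members (−0.75, SE 0.069, adjusted p = 0.000132). Its bin had a median of −0.26, and with bin medians subtracted the fall was 0.49 on the log2 scale (adjusted p = 0.00133). PES1 had 25.7 and 26.2 FPKM in the libraries labelled KO and 34.1 and 34.6 FPKM in WT (−0.39, adjusted p = 0.000588). WDR12 had 4.94 and 5.18 FPKM in the libraries labelled KO and 5.92 and 6.38 FPKM in WT (−0.24, adjusted p = 0.0136), a call lost with no filter and with either library labelled KO left out. The ratio of BOP1 RNA to PES1 RNA was 1.56 and 1.40 in the libraries labelled KO and 1.81 and 1.97 in WT. The bins of BOP1 and PES1 had medians of −0.26 and −0.089, and the make-up of the protein complex was not measured.

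Among the other large-subunit factors, RRS1, which brings in the 5S particle, fell by 0.46 (13.8 and 13.0 FPKM in the libraries labelled KO, 17.4 and 20.3 FPKM in WT), and NOP2, a methyltransferase of the large-subunit RNA, also fell by 0.46 (38.3 and 37.6 FPKM in the libraries labelled KO, 51.8 and 53.2 FPKM in WT). NOP16 fell by 0.37, RRP1B by 0.29, NOC3L by 0.25 and the helicase DDX18 by 0.19. DDX18 lost its call in 6 of 16 alternatives, and NOC3L lost it without KO replicate 1 and with bin medians subtracted (−0.14, adjusted p = 0.0755). EBNA1BP2 fell by 0.19 although its bin had a median of 0.24, and with bin medians subtracted the change was −0.43 (adjusted p = 0.000591), but 6 of 16 alternatives lost its call, among them those without KO replicate 1 and without KO replicate 2. PPAN fell by 0.26, but 61.7% of its exon bases are shared with other genes, among them its own readthrough transcript, and 8 of 15 alternatives lost the call.

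The GTPases GNL2 and GNL3 are paralogs that went opposite ways. GNL3, nucleostemin, had 78.4 and 82.1 FPKM in the libraries labelled KO and 107.1 and 107.3 FPKM in WT (−0.41, adjusted p = 0.000460). GNL2 had 32.2 and 34.2 FPKM in the libraries labelled KO and 28.6 and 29.1 FPKM in WT (0.20, adjusted p = 0.0186). The ratio of GNL2 to GNL3 was 0.411 and 0.416 in the libraries labelled KO and 0.267 and 0.271 in WT. The bins of GNL2 and GNL3 had medians of 0.25 and −0.21. With bin medians subtracted the change of GNL3 was −0.20 (adjusted p = 0.0168). SDAD1, a factor of large-subunit assembly and export, had 26.5 and 27.1 FPKM in the libraries labelled KO and 24.0 and 21.7 FPKM in WT (0.22, adjusted p = 0.0182). Both rises lost their call with no filter and with either library labelled KO left out, and with bin medians subtracted the changes were −0.050 for GNL2 and −0.12 for SDAD1, neither past the threshold. NIP7, NOC2L, BRIX1, NMD3 and MRTO4 had log2 changes between −0.18 and 0.091 and did not pass it. Of the BRIX1 exon bases, 68.5% are shared with TTC23L on the same strand.

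**Figure D3:**
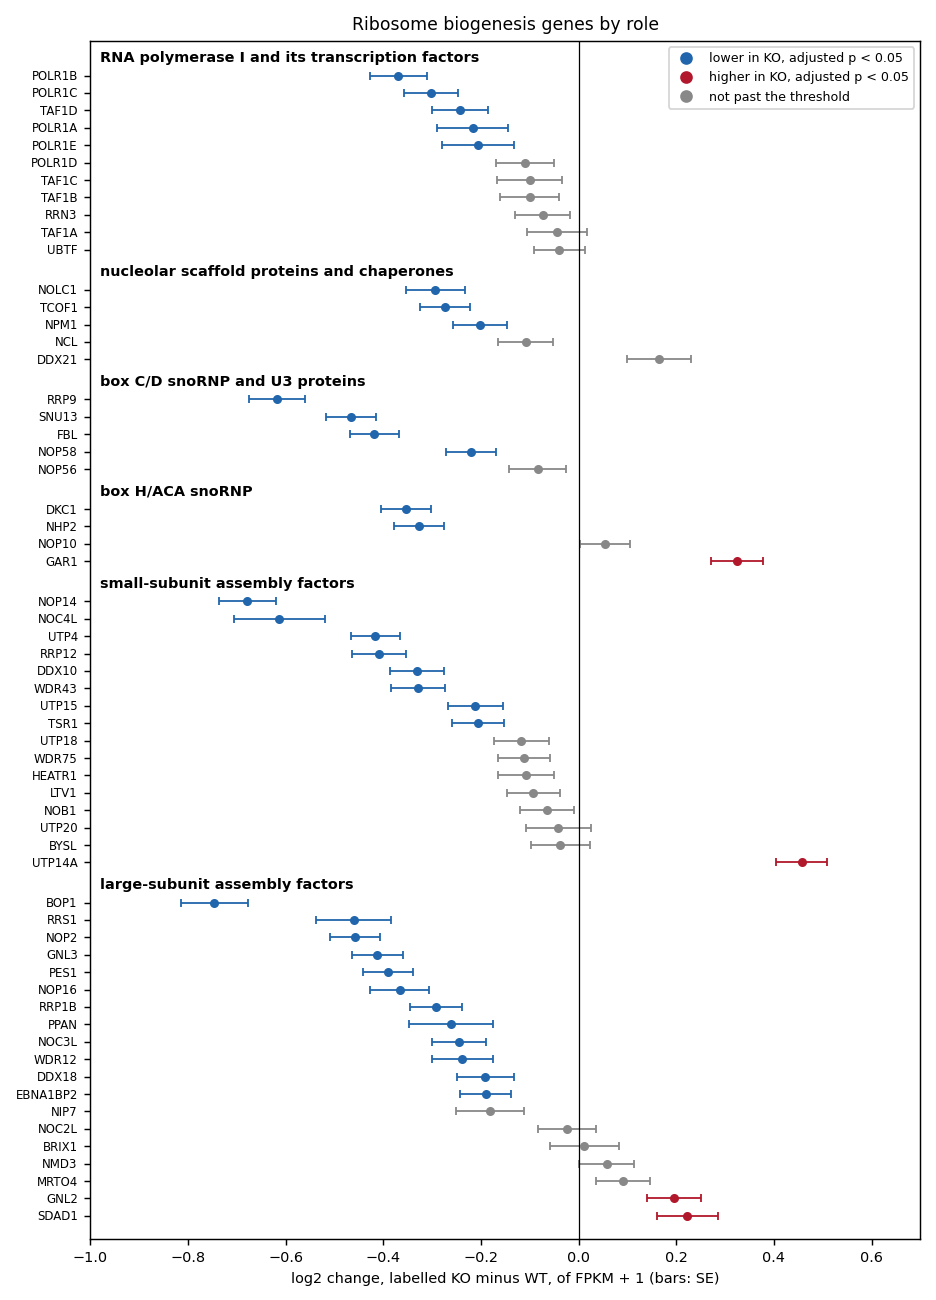
Log2 change of FPKM + 1, libraries labelled KO minus WT, for each of the 60 members in its role group; points are estimates, bars are SE, and colour marks genes past the threshold. Points left of 0 prevail in every group but the box H/ACA one, and BOP1 (−0.75), NOP14 (−0.68), RRP9 (−0.62) and NOC4L (−0.61) lie farthest left.

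The 4 members that rose all lie where neighbouring genes were higher as well. For each member the genome was cut into bins of 20 Mb and the median log2 change of the other tested genes in its bin was taken. Of 15 members in bins with a median above 0, 2 fell and 4 rose. Of 45 members in bins with a median below 0, 32 fell and 0 rose. Among all tested genes, 9.97% were lower and 50.5% were higher in bins above 0, against 34.5% lower and 12.0% higher in bins below 0. Across the 60 members, the change and the bin median correlated with Pearson's r of 0.76, against 0.42 across 11707 tested genes, as a description over genes that share the same 4 libraries and in part the same bins. With the bin medians subtracted, 26 of the 34 falls were still called, 6 further members were called lower, 0 were called higher, and the members' median was −0.19. In that fit 19.6% of all tested genes were lower.

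**Figure D4:**
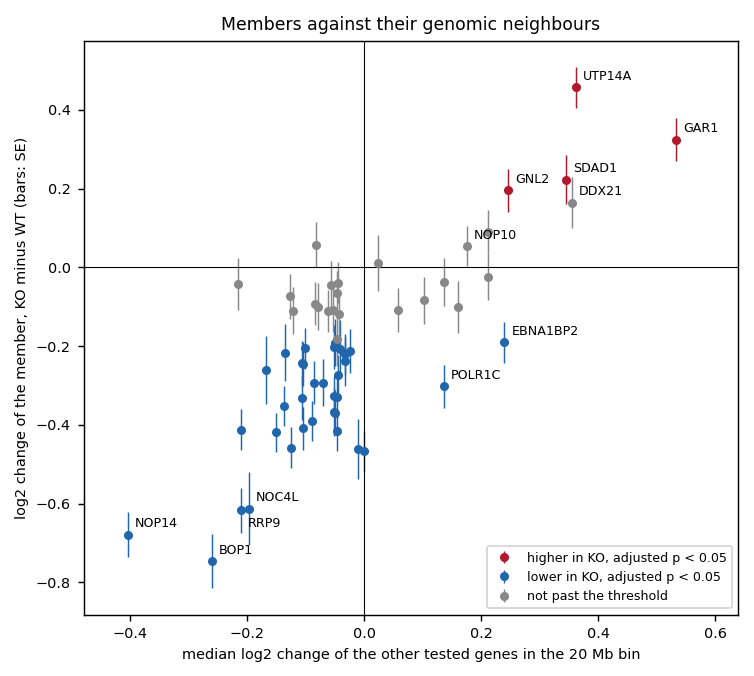
Log2 change of each member, libraries labelled KO minus WT (y axis, bars are SE), against the median log2 change of the other tested genes in its 20 Mb bin (x axis). The members that rose (GAR1, UTP14A, SDAD1 and GNL2) sit at bin medians from 0.25 to 0.53, while EBNA1BP2 and POLR1C are lower despite bin medians of 0.24 and 0.14.

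Several members do double duty as snoRNA hosts: genes for the guide RNAs that the snoRNP proteins bind lie within them. Some of these overlap annotated exons, as in DKC1, NOP56 and TAF1D. Counted from the deposited coordinates, 9 members hold 34 snoRNA genes on their own strand. TAF1D holds 8, NOP56 and GNL3 hold 5 each, NOP58 holds 4, NCL and WDR43 hold 3 each, and DKC1, TSR1 and PPAN hold 2 each. Of these hosts 7 fell and 0 rose. Of all 60 members 56.7% fell and 6.67% rose, and of all tested genes 28.4% fell and 21.6% rose. The hosts had a median log2 change of −0.24, against −0.21 over all members, and NOP56 and NCL were the hosts that did not pass the threshold. The members were shorter than other genes, with a median gene length of 2843 bp, against 3980 bp over all tested genes, and their median GC content was 48.2%, against 48.1%. With the trend of change with length removed, 31 members were lower and 5 were higher. Their levels were higher, with a median of 27.7 FPKM, against 8.46 FPKM. Besides NHP2, PPAN and BRIX1, 3 members share over 20% of their exon bases with another gene (TSR1, HEATR1 and TAF1C).

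MYC binds the E-box, CACGTG, and many promoters of this pathway carry it. RefSeq promoters (GRCh38.p14, 250 bases before to 50 after the start) were matched for 50 members, and 18 of them (36.0%) hold CACGTG, which reads the same on both strands. It was present in 10.5% of promoters of tested genes and in 7.43% of all RefSeq promoters searched. In 15 of the 18, an E-box begins within 50 bases of the start. Of the matched members, 9 of 24 that fell hold it (37.5%), against 9 of 26 others (34.6%), but all 10 members without a matched promoter were among those that fell, BOP1 included. Among all tested genes, 30.8% of those with it were lower in the libraries labelled KO, against 27.4% of those without. CCGGAAG, the core of many ETS sites, was found on either strand in 42.0% of the members' promoters, against 21.0% of those of tested genes, and in 37.5% of the members that fell, against 46.2% of the others.

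The following promoters belong to the 5 members with the largest changes past the threshold among matched members with an E-box. They are shown because the motif sits in the promoters of members that fell as well as of UTP14A, which rose. Each is 150 bases, 5′ to 3′ on the gene's strand, from 100 bases before to 50 after the start (for UTP14A from 250 to 101 bases before it), with CACGTG in capitals. The start is that of the RefSeq promoter, which for NOP14, FBL and UTP14A lies inside the gene as deposited.
NOP14, chr4:2963357-2963506, minus strand: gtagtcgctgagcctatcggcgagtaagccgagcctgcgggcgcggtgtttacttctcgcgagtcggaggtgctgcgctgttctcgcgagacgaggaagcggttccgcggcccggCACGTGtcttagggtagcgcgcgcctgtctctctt
RRP9, chr3:51941855-51942004, minus strand: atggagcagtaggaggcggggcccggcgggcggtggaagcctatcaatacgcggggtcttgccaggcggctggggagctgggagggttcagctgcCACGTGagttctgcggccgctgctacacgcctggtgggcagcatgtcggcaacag
NOP2, chr12:6568242-6568391, minus strand: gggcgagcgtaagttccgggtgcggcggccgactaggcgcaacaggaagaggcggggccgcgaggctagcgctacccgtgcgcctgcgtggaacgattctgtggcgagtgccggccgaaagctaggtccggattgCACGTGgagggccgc
UTP14A, chrX:129905914-129906063, plus strand: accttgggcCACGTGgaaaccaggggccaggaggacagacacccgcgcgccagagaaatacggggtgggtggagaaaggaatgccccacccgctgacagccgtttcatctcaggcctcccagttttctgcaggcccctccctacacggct
FBL, chr19:39846330-39846479, minus strand: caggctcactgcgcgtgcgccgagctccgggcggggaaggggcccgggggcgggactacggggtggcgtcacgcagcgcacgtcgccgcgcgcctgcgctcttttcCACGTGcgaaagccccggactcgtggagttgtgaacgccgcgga
In RRP9 the motif begins at base −5, counted back from the start. In FBL, NOP14 and NOP2 it begins at bases 7, 16 and 36, counted forward from the start. In UTP14A it begins at base −241. A match says only that the letters are there, and binding was not measured here.

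Other genes of the pathway, listed by role from general knowledge, went the same way in similar proportion. Of 120 such genes, 119 were matched and 118 were tested. Of these, 68 were lower (57.6%) and 13 were higher (11.0%) in the libraries labelled KO, with a median log2 change of −0.20. Over all tested genes, 28.4% were lower and 21.6% were higher. Of the 68 falls, 30 kept their call in every alternative run, as did 21 of the 34 falls among the members. Of the other large-subunit factors, 28 of 44 fell (63.6%) and 4 rose (9.09%). The falls were led by PELP1 and TEX10, which belong to the same processing complex. PELP1 had 3.04 and 2.92 FPKM in the libraries labelled KO and 5.97 and 5.76 FPKM in WT (−0.79, adjusted p = 4.7e-05). TEX10 had 13.4 and 14.6 FPKM in the libraries labelled KO and 23.6 and 22.6 FPKM in WT (−0.69, adjusted p = 0.000107), and its bin had a median of −0.056.

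Of the other small-subunit genes, 18 of 38 fell (47.4%) and 5 rose (13.2%), against 28.4% and 21.6% over all tested genes. The falls were led by the methyltransferase DIMT1 (−0.59, adjusted p = 0.000354) and NOL6 (−0.57, adjusted p = 0.000111). Of 10 further RNA polymerase I genes, 6 fell and 0 rose, among them POLR2E (−0.44) and POLR2L (−0.42), which all 3 nuclear polymerases share. Of 10 snoRNP assembly factors, 6 fell and 2 rose. RUVBL1, an ATPase of the complex that builds box C/D particles, had 22.9 and 24.3 FPKM in the libraries labelled KO and 32.4 FPKM in both WT libraries (−0.44, adjusted p = 0.000443), and NUFIP1, a platform protein of box C/D assembly, fell by 0.32. Of 16 genes for the nuclear exosome and ribosomal RNA trimming, 10 fell (62.5%) and 2 rose (12.5%). There the exosome subunits EXOSC4 and EXOSC9 moved apart, by −0.63 (bin median −0.26) and 0.56 (bin median 0.48), and EXOSC9 lost its call with bin medians subtracted.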

How the data were processed

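Total RNA of MDA-MB-231 cells was sequenced in 4 libraries, 2 labelled KO and 2 WT, grouped by their titles. The authors deposited 1 table of FPKM values with gene lengths and exon coordinates, per the file headers; STAR, Subread and DESeq2 are named in the submitters' processing notes without version or role. The sources used here name no genome build, annotation or strand setting. Of 37675 genes on 1 chromosome matched by Entrez ID, 98.4% started or ended no more than 1000 bp from their place in GRCh38.p14. FPKM times length gave whole fragments for 100% of values (tolerance 0.001), and 0 columns belonged to other samples.

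Symbols came from a RefSeq table (37708 of 39259 genes). Genes averaging 1 FPKM or more were kept (11716), log2(FPKM + 1) was fitted with limma 3.58.1 in R 4.3.3 (eBayes, trend and robust), libraries labelled KO minus WT, and p-values were adjusted by Benjamini-Hochberg over the kept genes, with a threshold of 0.05. This scale understates changes of low genes. Each group had n = 2 libraries. Neighbours were tested genes of the same 20 Mb bin, with the chromosome's median for bins under 10 genes. Alternatives were a pseudocount of 0.1, no filter, a minimum of 5 FPKM, quantile and median-of-ratios scaling, limma without trend, voom on the fragments, replicate blocks, bin medians, length and GC trends, and each library left out. Members, lists and tests were chosen with earlier results of these data known, and no test was run over a list. Values per library were given for snoRNP proteins, POLR1A to POLR1E, every rise and the 2 largest changes of each role group; the other members with such values were chosen after their values were seen. From each other list of the pathway the 2 largest changes past the threshold were named. Steps were tested on simulated data. A planned comparison of protein sequences was not made.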

Additional observations from a re-analysis of the deposited data

How the results depend on the processing

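Of 957 values of the 60 members under 16 alternatives, 839 kept their direction and side of the threshold, 66 lost and 21 gained the call, and 31 changed sign. Members that fell numbered 27 to 35 with all libraries kept and 21 to 36 with 1 left out; members that rose numbered 2 to 5 with 1 left out, 2 with no filter (both large-subunit rises lost, 0 left) and 0 with bin medians subtracted, where the box H/ACA, small-subunit and large-subunit rises were all 0. Of the RNA polymerase I genes, 3 fell with no filter, with quantile normalization, with median-of-ratios scaling, with limma without trend or robust and with bin medians subtracted, and 2 to 5 with 1 library left out. Of the nucleolar scaffold genes 1 to 4 fell and 0 to 1 rose with 1 library left out, and 1 (DDX21) rose under quantile normalization, median-of-ratios scaling, voom and the crossed block. Of the box H/ACA genes 2 rose with the length trend, or the length and GC trends, removed. Of the large-subunit factors 7 to 12 fell and 0 to 2 rose with 1 library left out. Over all genes, 1962 to 4001 were lower and 1559 to 3076 higher with 1 left out, and voom called 3683 and 2804. The cause of these shifts was not tested. The fit with the replicate block left the members at 34 lower and 4 higher; the labels name no shared culture, and the replicate differences of the groups correlated at −0.22 across genes. The crossed block, chosen after seeing the data like the length and GC trends, gave 35 lower and 5 higher. Scaling moved the median of all genes by 0.039 at most.

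Sign changes were mostly near 0. With bin medians subtracted the log2 change was 0.012 for POLR1D, 0.0060 for UBTF, 0.054 for RRN3, 0.012 for TAF1A, 0.17 for UTP20, −0.21 for GAR1, −0.12 for NOP10, −0.19 for DDX21, −0.012 for BRIX1, −0.050 for GNL2, −0.12 for MRTO4 and −0.12 for SDAD1, of which GAR1 and DDX21 passed the threshold. It was 0.0027 for UBTF and 0.018 for NOC2L under quantile normalization; 0.0046 for UBTF, 0.00044 for UTP20, 0.0073 for BYSL and 0.021 for NOC2L under median-of-ratios scaling; and −0.0059 for BRIX1 under voom. With the length trend removed it was 0.041 for BYSL, 0.015 for NOB1 and 0.0091 for NOC2L, and with GC removed too 0.061, 0.016 and 0.035. With 1 library left out it ranged from −0.11 to 0.024 for UTP20, −0.11 to 0.031 for BYSL, −0.080 to 0.032 for NOC2L and −0.051 to 0.073 for BRIX1.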
